A study of Mus musculus with 96 samples.

Results

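In the 14 heart libraries of a study of reprogrammable mouse strains, the RNA level of Myl7 ran from 0.175 to 293 CPM (counts per 1000000), and the hearts compared here are the 5 libraries with the highest and the 5 with the lowest Myl7 level. The members were chosen by Myl7 itself: CPM, the estimated count of a gene divided by the library total, times 1000000, was computed for each heart library, and 5 libraries were taken from each end. The 5 high-Myl7 hearts are set against the 5 low-Myl7 hearts, and the 4 libraries between them are shown beside both. They come from a series of 96 libraries over 7 tissues. All mice were 2 months old.

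The labels describe hearts of the strains 4Fj, 4FsB, 4Fk and 4FsA, with 3 samples each, and 2 hearts of WT control mice. The strains are built for inducing reprogramming factors in vivo. The sources used here name neither the inducing agent, nor whether it was given, nor the promoter of a transgene. Library names hold a tissue code and a running number but no genotype, so a heart library could not be tied to WT or to a strain, and each side may hold several genotypes. Because measured values made the sides, every difference between them is given as a description, with no test and no p-value.

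Myl7 encodes the regulatory myosin light chain of atrial muscle cells. In the adult mouse the atria and the ventricles build their sarcomeres from partly different isoforms: atrial cells use Myl7 with the essential light chain Myl4, and ventricular cells use Myl2 with Myl3. Atrial cells also store natriuretic peptide, the product of Nppa, and carry sarcolipin (Sln), a small membrane protein that inhibits the calcium pump of the sarcoplasmic reticulum.

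Myl7 stood at 293, 108, 42.1, 25.2 and 23.8 CPM in high-Myl7 heart libraries 6, 4, 1, 5 and 8. It stood at 21.8, 10.2, 6.87 and 1.83 CPM in libraries 12, 13, 9 and 11, which lie between the sides. It stood at 1.44, 0.679, 0.289, 0.242 and 0.175 CPM in low-Myl7 heart libraries 14, 15, 7, 3 and 10. The levels ran down without a step at either limit: library 8, the lowest of the high side, lay at 23.8 CPM beside 21.8 CPM in library 12, and library 14, the highest of the low side, lay at 1.44 CPM beside 1.83 CPM in library 11. The estimated Myl7 counts were 256 to 2909 on the high side and 2 to 18 on the low side, so the order within the low side rests on few reads.

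Totals ran from 9168080 to 13827205 estimated counts over the 14 libraries, so that a count of 0 allows a level of up to 0.217 to 0.327 CPM (3 counts of the total, which covers counting error only, since reads are not independent molecules). Of these counts, 29.6% to 32.6% on the high side and 31.0% to 38.6% on the low side came from mitochondrially encoded genes. Some libraries stood apart. The median correlation of log2(CPM + 1) with the other hearts was 0.791 in libraries 13 and 14, 0.843 in library 1 and 0.879 in library 15, against 0.900 to 0.946 in the other 10. Library 1, on the high side, held 16048 genes with 1 count or more, the fewest of all hearts. It held no count of the Y-linked genes Ddx3y, Eif2s3y, Kdm5d and Uty, which the other 13 hearts held. The 5 sex chromosome genes, these and Xist, summed to 3.31 CPM in library 1, all of it Xist. The part of sex in the result was not tested. Libraries 14 and 15 are on the low side. Values without libraries 1, 14 and 15, an alternative chosen after seeing the data, are given beside several results.

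Outside Myl7, which made the split, 3 genes were higher on the high side by the call rule, and none was lower. The rule asks that the sides do not overlap and that the medians of log2(CPM + 1) differ by 1 or more, which is 2-fold on that scale. It was applied to the 13321 genes with a mean of 1 CPM or more over the 14 hearts. The 3 genes, Myl4, Sln and Mybphl, are 0.0225% of the genes compared, and the share called lower was 0%. All 3 are atrial muscle genes, and each was on the list of 18 atrial genes used here. Over all genes the median difference was 0.01, high minus low on the log2(CPM + 1) scale. In bulk tissue a sample with fewer atrial cells and one with less RNA per atrial cell cannot be told apart.

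**Figure D1:**
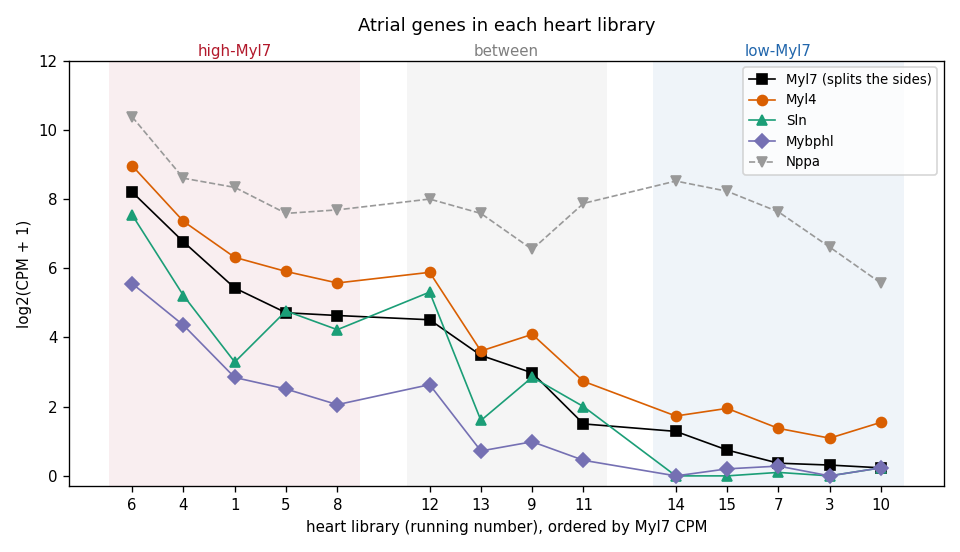
log2(CPM + 1) of Myl7, Myl4, Sln, Mybphl and Nppa (vertical axis) in each of the 14 heart libraries (horizontal axis), with the 5 high-Myl7 libraries at the left, the 4 between in the middle and the 5 low-Myl7 libraries at the right. Each point is 1 library. Myl4, Sln and Mybphl lie higher in all 5 high-Myl7 libraries than in any low-Myl7 library, whereas the Nppa values of the sides overlap.

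Myl4, the essential light chain that pairs with Myl7 in atrial myosin, stood at 498, 163, 78.6, 59.0 and 46.6 CPM in high-Myl7 libraries 6, 4, 1, 5 and 8, against 2.32, 2.87, 1.59, 1.13 and 1.92 CPM in low-Myl7 libraries 14, 15, 7, 3 and 10. The lowest high-Myl7 heart was thus above every low-Myl7 heart, and the difference of medians was 4.77 on the log2(CPM + 1) scale. The libraries between held 58.0, 11.2, 16.0 and 5.64 CPM in libraries 12, 13, 9 and 11. Over the 14 hearts Myl4 followed the order of Myl7 with a Spearman rho of 0.974. On the low side Myl4 still had 14 to 38 counts a library.

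Sln stood at 185, 36.0, 8.77, 26.2 and 17.7 CPM in high-Myl7 libraries 6, 4, 1, 5 and 8. In the low-Myl7 hearts it was near the limit of detection: it had no count in libraries 14, 15 and 3, 0.0723 CPM in library 7 and 0.175 CPM in library 10. These are 3 counts in all over the low side, against 2959 over the high side. The difference of medians was 4.77 on the log2(CPM + 1) scale, which understates a change from a level near 0. Library 12, between the sides, held 38.7 CPM of Sln, more than 4 of the 5 high-Myl7 hearts.

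Mybphl, a myosin-binding protein of atrial and conduction muscle, stood at 46.1, 19.5, 6.18, 4.70 and 3.17 CPM in high-Myl7 libraries 6, 4, 1, 5 and 8. It had no count in low-Myl7 libraries 14 and 3, and 0.151, 0.217 and 0.175 CPM in libraries 15, 7 and 10. The low-Myl7 hearts together held 7 counts, against 882 in the high-Myl7 hearts. The difference of medians was 2.64 on the log2(CPM + 1) scale. The libraries between, at 0.366 to 5.22 CPM, overlapped the high side and lay above the low side.

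The calls of these 3 genes were made in all 17 alternatives run, which changed the scaling, the filter or the pseudocount or left libraries out. Of these, 10 left out 1 library. Leaving libraries out, or changing the filter or the pseudocount, cannot make separated sides overlap, so these alternatives could not undo the separation. The number of other genes called was not stable. A side of 4 libraries overlaps less easily than a side of 5, and the genes called higher numbered 7 without library 4, 9 without library 1, 11 without library 5, 9 without library 8, 6 without library 3 and 18 without library 10, with 3 or 4 without any other library. Genes called lower numbered 33 without library 10, 6 without library 1 and 5 without library 3, with 0 without library 6 and 1 to 3 without any other library. Without libraries 1, 14 and 15 together, 16 genes were called higher and 8 lower.

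**Figure D2:**
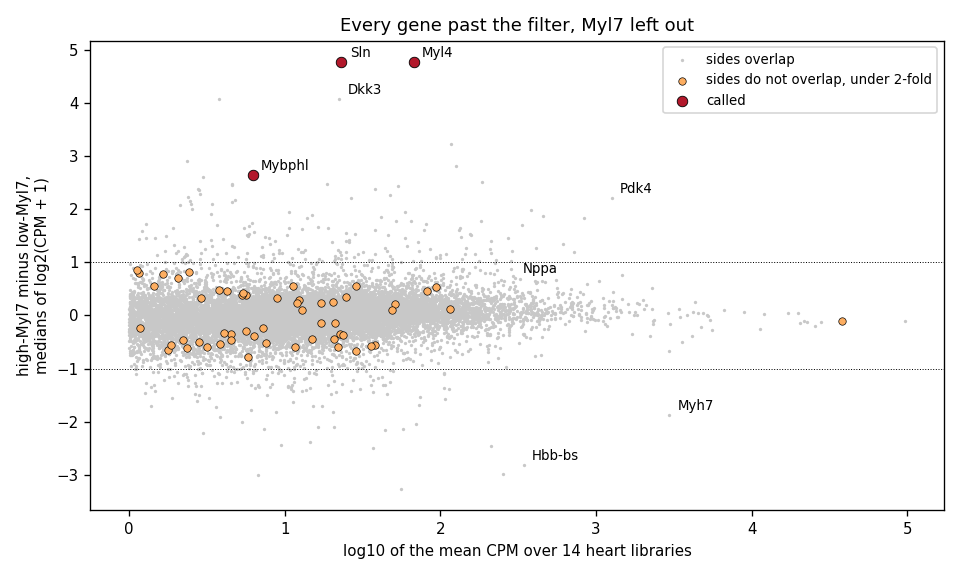
Difference between the sides, high-Myl7 minus low-Myl7, as medians of log2(CPM + 1) (vertical axis), against the log10 of the mean CPM over 14 hearts (horizontal axis) for the 13321 genes compared. Each point is a gene, orange where the sides do not overlap and the difference is under 2-fold, and red for the 3 called genes. Dotted lines mark differences of 1 and -1. Some genes, Dkk3 among them, reach a larger difference than Mybphl while their sides overlap.

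The stretches before the start of these genes are shown because Myl7, Myl4 and Mybphl move together over the hearts and Nppa, the other given atrial marker, does so less. No stretch was found for Sln, the other called gene, so none is shown. Each is the 250 bases before the start on the gene's strand, from RefSeq on build GRCm38.p6. The deposited counts were made on GRCm39, per the submitters' processing notes, so these coordinates belong to the RefSeq table alone. Capitals mark matches to any of 5 motifs searched on both strands: the CArG box (by name), the MEF2 site (by name), the GATA site GATAA, the T-box half-site AGGTGT and the TATA box TATAAA. The Myl7 stretch lies at chr11:5898783-5899032 on the minus strand, that of Myl4 at chr11:104550413-104550662 on the plus strand, that of Mybphl at chr3:108364661-108364910 on the plus strand, and that of Nppa at chr4:148000472-148000721 on the plus strand.
Myl7: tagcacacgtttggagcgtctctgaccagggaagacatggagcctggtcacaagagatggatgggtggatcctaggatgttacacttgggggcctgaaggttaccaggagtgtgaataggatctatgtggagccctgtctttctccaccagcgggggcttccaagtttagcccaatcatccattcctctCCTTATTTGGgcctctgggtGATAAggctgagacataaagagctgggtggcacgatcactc
Myl4: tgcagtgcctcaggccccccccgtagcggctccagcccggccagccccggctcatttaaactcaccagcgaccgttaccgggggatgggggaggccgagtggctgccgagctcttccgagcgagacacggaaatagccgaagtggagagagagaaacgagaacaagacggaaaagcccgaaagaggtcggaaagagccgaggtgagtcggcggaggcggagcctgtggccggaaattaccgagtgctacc
Mybphl: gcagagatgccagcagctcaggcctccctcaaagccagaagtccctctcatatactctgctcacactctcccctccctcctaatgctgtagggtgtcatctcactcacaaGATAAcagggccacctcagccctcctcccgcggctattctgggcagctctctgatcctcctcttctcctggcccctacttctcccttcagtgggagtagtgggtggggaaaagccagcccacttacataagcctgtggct
Nppa: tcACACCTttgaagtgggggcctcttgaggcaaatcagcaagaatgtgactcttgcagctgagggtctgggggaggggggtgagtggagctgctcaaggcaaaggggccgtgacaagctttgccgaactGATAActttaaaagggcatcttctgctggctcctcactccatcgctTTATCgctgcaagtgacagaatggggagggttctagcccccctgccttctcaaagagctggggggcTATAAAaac

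The Myl7 stretch holds 1 CArG box, the sequence bound by serum response factor, 61 to 52 bases before the start, and a GATA site 41 to 37 bases before it. The Mybphl stretch holds a GATA site 140 to 136 bases before the start. The Nppa stretch holds 2 GATA sites, a T-box half-site and a TATA box. No match to the 5 motifs lies in the Myl4 stretch, which says only that these letters are not in this window. Of 32851 such stretches in the table, 1.47% hold a CArG box, 2.92% a MEF2 site, 22.6% a GATA site, 11.8% a T-box half-site and 12.4% a TATA box. No 2 of the marked matches overlap.

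Within a library, the counts of the called genes can be set against the count of Myl7. In the 5 high-Myl7 hearts, Mybphl had 0.133 to 0.186 counts per Myl7 count and Myl4 had 1.51 to 2.34, while Myl7 itself ranged 12.3-fold over the same libraries. The highest of these Mybphl ratios was 1.40 times the lowest, and for Myl4 this was 1.55 times. Sln had 0.209 to 1.04 counts per Myl7 count in the same hearts, a range of 4.98 times, lowest in library 1. The ratios are not corrected for gene length, so they are compared between libraries and not between genes. Among the libraries between the sides, library 13 had the lowest ratio of each of the 3 genes, at 1.10 for Myl4, 0.200 for Sln and 0.0636 for Mybphl. On the low side Myl7 counts are too few for a steady ratio.

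**Figure D3:**
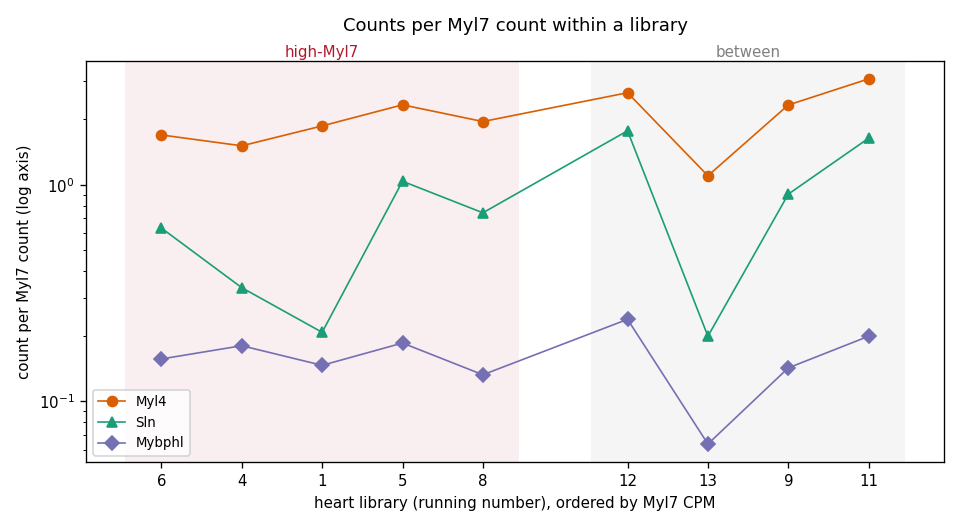
Counts of Myl4, Sln and Mybphl per Myl7 count (vertical log axis) in the high-Myl7 libraries at the left and in the libraries between the sides at the right (horizontal axis); each point is 1 library. The Myl4 and Mybphl lines are nearly level over the 5 high-Myl7 hearts, and the Sln line varies more. Low-Myl7 libraries, with 2 to 18 Myl7 counts, are left out.

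Nppa, the third given marker, had a higher median on the high side but did not separate the sides. It stood at 1326, 387, 322, 191 and 205 CPM in high-Myl7 libraries 6, 4, 1, 5 and 8, against 366, 298, 197, 96.7 and 46.5 CPM in low-Myl7 libraries 14, 15, 7, 3 and 10. The sides overlapped, and low-Myl7 library 14 held more Nppa than 3 of the high-Myl7 hearts. The difference of medians was 0.71, it ran from 0.38 to 1.22 with 1 library left out, and it was 1.53 without libraries 1, 14 and 15, where the sides still overlapped. Of the 2 given atrial markers beside Myl7, Myl4 separated the sides and Nppa did not.

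The other atrial genes were mixed. Of the 17 atrial genes beside Myl7, 16 passed the filter and 3 were called higher, and the median difference over the 17 was 0.43, or 0.28 without libraries 1, 14 and 15, against 0.01 over all genes. Without the 3 called genes, the 14 that remain had differences of -0.22 to 4.06 with a median of 0.35, 10 above 0 and 4 below, and in all 14 the sides overlapped.

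Dkk3, a secreted protein of the Dickkopf family, came nearest to a call among the other atrial genes. It stood at 88.0, 53.5, 56.3, 13.2 and 13.8 CPM in high-Myl7 libraries 6, 4, 1, 5 and 8, against 1.92, 2.26, 1.59, 4.52 and 15.4 CPM in low-Myl7 libraries 14, 15, 7, 3 and 10. Library 10 alone made the sides overlap, and the difference of medians was 4.06, or 2.36 without libraries 1, 14 and 15. Bmp10, a ligand of the bone morphogenetic protein family made in the right atrium, had 9.73 CPM in library 4 and no count in libraries 6 and 8 on the high side. On the low side it had 0.403 CPM in library 3 and no count in the other 4. Bmp10 was thus high in 1 high-Myl7 heart and not in library 6, the heart with the most Myl7.

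The sides overlapped for atrial transcription factors and channels. The T-box factor Tbx5 stood at 12.1 to 70.3 CPM (median 35.7) in high-Myl7 hearts, against 11.5 to 47.6 CPM (median 21.6) in low-Myl7 hearts. The medians of Tbx5 differed by 0.70, by 0.46 to 1.00 with 1 library left out, and by 0.52 without libraries 1, 14 and 15. Nr2f2, a nuclear receptor that specifies atrial identity in the mouse embryo, stood at 4.57 to 20.8 CPM (median 16.7), against 10.6 to 23.3 CPM (median 16.6). Kcnj3 and Kcnj5, the subunits of the acetylcholine-gated potassium channel, differed by 0.34 and -0.04, and Kcna5, a voltage-gated potassium channel, by 0.14. Pam, which amidates peptides and is abundant in atrial granules, had a median of 647 CPM in high-Myl7 hearts and 479 CPM in low-Myl7 hearts, a difference of 0.43, or 0.97 without library 3, 0.84 without library 7 and 0.20 without libraries 1, 14 and 15, with its lowest value of all hearts, 90.3 CPM, in library 13. None of these genes separated the sides.

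**Figure D4:**
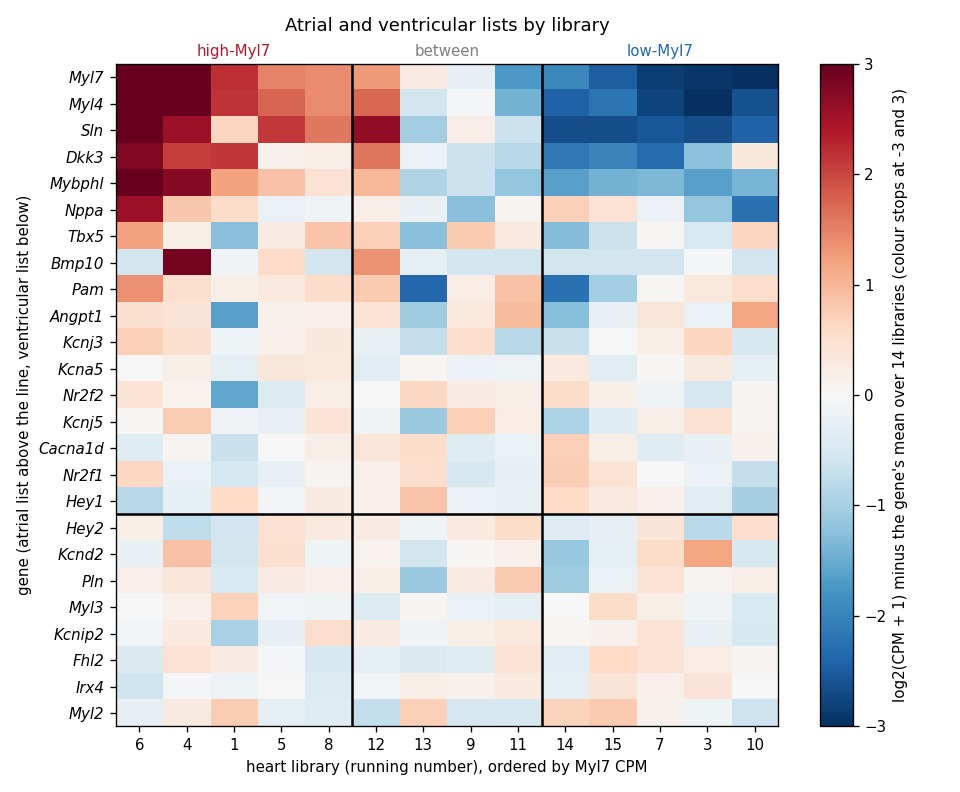
log2(CPM + 1) minus each gene's mean over the 14 hearts (colour) for 17 genes of the atrial list, above the line, and the 8 of the ventricular list, below it (vertical axis), in each heart library (horizontal axis), ordered from high to low Myl7. The colour stops at -3 and 3. Myl7, Myl4, Sln, Dkk3 and Mybphl run from red at the left to blue at the right, and most other rows show no such run.

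No gene of the ventricular list separated the sides. All 8 of its genes passed the filter and none was called. On the high side 5 had a lower and 3 a higher median, and the median difference was -0.09. Myl2, the regulatory light chain of ventricular myosin, stood at 2982 to 6598 CPM (median 3247) in high-Myl7 hearts, against 2527 to 6695 CPM (median 4248) in low-Myl7 hearts. Irx4, a transcription factor confined to ventricular muscle in the mouse, stood at 17.5 to 26.6 CPM (median 24.0), against 22.1 to 35.8 CPM (median 30.1). Myl2 differed by -0.39, Irx4 by -0.31 and Fhl2 by -0.29, and each stayed below 0 with any 1 library left out. Hey2 differed by 0.41 and Pln by 0.06, and both stayed above 0 with any 1 library left out. Myl3, Kcnip2 and Kcnd2 changed sign. Without libraries 1, 14 and 15, Myl2 differed by -0.13, Irx4 by -0.37, Fhl2 by -0.48, Hey2 by -0.16 and Pln by -0.003. Over the 14 hearts the Spearman rho with Myl7 was -0.657 for Irx4 and 0.081 for Myl2. The 17 genes of heart muscle in general had a median difference of 0.01, with a summed level of 49325 to 67934 CPM on the high side and 43997 to 65672 CPM on the low side. Myh6, the main adult heavy chain of mouse heart, differed by 0.05. Transcripts of heart muscle in general and of ventricular muscle were thus abundant on both sides.

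The sinus node and conduction system lie in or next to the atria. Of their 13 genes, 10 passed the filter and none was called, with a median difference of 0.14. Hcn4, the main pacemaker channel, stood at 4.13, 15.2, 14.5, 12.3 and 8.38 CPM in high-Myl7 libraries 6, 4, 1, 5 and 8, against 5.21, 5.88, 6.65, 10.0 and 9.97 CPM in low-Myl7 libraries 14, 15, 7, 3 and 10. The medians differed by 0.80, or by 0.03 without libraries 1, 14 and 15. Library 6 had the lowest Hcn4 of all hearts although it had the most Myl7. Cacna2d2, an auxiliary calcium channel subunit, had the widest difference of the list, 1.18, with 2.35 to 17.6 CPM in high-Myl7 hearts against 0.796 to 3.87 CPM in low-Myl7 hearts, and overlapped. Isl1, a marker of the sinus node, had at most 0.302 CPM in any heart.

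No gene of the natriuretic peptide system separated the sides, and of the calcium cycle Sln alone did. In the 9 genes of the natriuretic list, Nppa among them, none was called. Of these, 6 had a higher and 3 a lower median on the high side, and the list median was 0.24. Furin differed by 0.85 and Corin by 0.49, and both overlapped. Nppb, the peptide made by strained heart muscle, stood at 23.4, 36.3, 584, 176 and 25.7 CPM in high-Myl7 libraries 6, 4, 1, 5 and 8, against 74.7, 96.7, 108, 122 and 9.80 CPM in low-Myl7 libraries 14, 15, 7, 3 and 10. Its medians differed by -1.39 with wide overlap, and by -0.27 without library 6. Of the 15 calcium handling genes Sln alone was called, and the list median was -0.07. Pln, the phospholamban of ventricular muscle, differed by 0.06, and Atp2a2, the calcium pump that both small proteins inhibit, by 0.07. The 25 ion channels and connexins had a median difference of 0.05 and no call.

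Some gene lists had wide differences of medians while their sides overlapped. All 6 red cell genes had lower medians in high-Myl7 hearts, with a list median of -2.64, yet high-Myl7 library 1 held the most. Hbb-bs, a beta globin, stood at 37.6, 36.7, 1441, 73.0 and 159 CPM in high-Myl7 libraries 6, 4, 1, 5 and 8, against 1024, 627, 105, 520 and 31.2 CPM in low-Myl7 libraries 14, 15, 7, 3 and 10. The list median was -1.65 without library 14 and -0.88 without libraries 1, 14 and 15. None of the 6 genes separated the sides, and their part in the result was not tested.

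The 4 reprogramming factors had higher medians on the high side and overlapped. Pou5f1 stood at 13.01, 3.70, 0, 3.96 and 1.77 CPM in high-Myl7 libraries 6, 4, 1, 5 and 8, against 0, 0, 1.52, 0 and 4.11 CPM in low-Myl7 libraries 14, 15, 7, 3 and 10. The medians of Pou5f1 differed by 2.23, or by 0.94 without libraries 1, 14 and 15. Sox2 differed by 2.00, Myc by 1.89 and Klf4 by 0.05. Library 6 held both the most Myl7 and the most Pou5f1 of all hearts, and library 10 held the least Myl7 and the second most Pou5f1. The part of the transgenes in the result was not tested.

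Among the immediate early genes, which respond within minutes to tissue handling and other stimuli, Jun alone separated the sides, at 84.3 to 142 CPM in high-Myl7 hearts against 37.1 to 80.3 CPM in low-Myl7 hearts, a difference of 0.53, which was 0.35 without library 15 or library 3 and 0.22 without libraries 1, 14 and 15. The other 9 overlapped, and the list median was 0.70, or 0.24 without library 5. White adipocyte genes had a list median of 0.99, or 0.48 without library 15, and a summed level of 1.52 to 27.3 CPM on the high side and 0.0754 to 19.1 CPM on the low side, where library 10 was the highest. Pdk4, a kinase that holds back glucose oxidation, had a median of 1776 CPM in high-Myl7 hearts and 385 CPM in low-Myl7 hearts, a difference of 2.20, or 1.33 without library 6 and 1.16 without libraries 1, 14 and 15, and overlapped. Myh7, the slow heavy chain, overlapped too, with a median of 346 CPM against 1276 CPM, a difference of -1.88, or -0.92 without library 7, -1.10 without library 6 and -2.84 without libraries 1, 14 and 15. Over all genes compared, 177 were higher and 152 lower by 2-fold or more in their medians with overlapping sides, so a difference of this size without separation is common here.

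**Figure D5:**
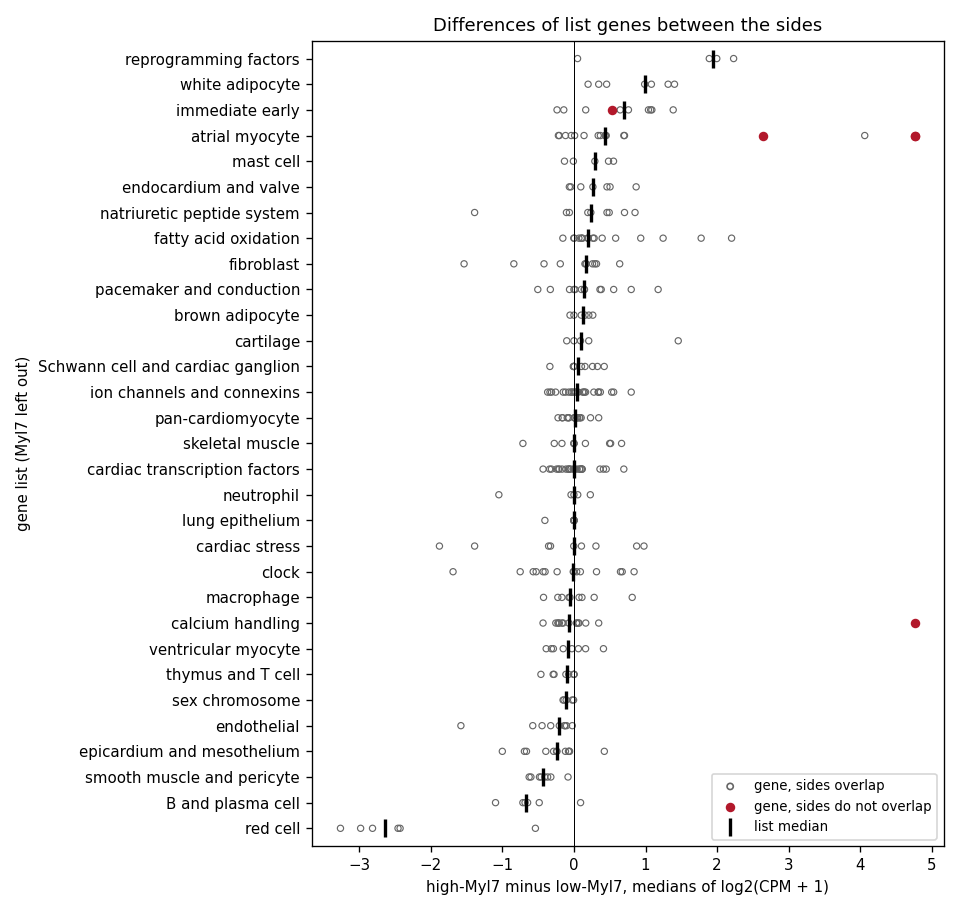
Difference between the sides, high-Myl7 minus low-Myl7, as medians of log2(CPM + 1) (horizontal axis) for each gene of the 31 lists (vertical axis), with Myl7 left out. Circles are genes whose sides overlap, red points genes whose sides do not, and bars list medians. The red points at 2.64 and 4.77 are Mybphl, Sln and Myl4, and the other one is Jun at 0.53.

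Markers of lung and thymus were at or near 0 on both sides. The surfactant genes Sftpc, Sftpb, Sftpa1 and Sftpd of lung had no count in any heart library, and the 8 lung genes summed to 0 to 0.367 CPM in high-Myl7 hearts and 0.0723 to 1.43 CPM in low-Myl7 hearts. Ptcra, a receptor chain of immature T cells in the thymus, had no count in any heart, and the 8 thymus and T cell genes summed to 0.453 to 2.51 CPM on the high side and 0.145 to 5.96 CPM on the low side. Of skeletal muscle, which also makes Sln, the fast myosins Myh1, Myh2 and Myh4 had at most 0.262 CPM in any heart, while the whole list of 10 genes summed to 11.6 to 48.7 CPM on the high side and 11.5 to 27.4 CPM on the low side. None of the 10 separated the sides, and 4 had a higher and 3 a lower median on the high side. Tnni2, Atp2a1, Pvalb and Tnnt3 differed by 0.67, 0.51, 0.50 and 0.16, and Myl1, Actn3 and Mylpf by -0.71, -0.28 and -0.17. The part of skeletal muscle in the Sln result was not tested. Epicardial and mesothelial genes summed to 13.4 to 31.4 CPM on the high side and 19.7 to 47.9 CPM on the low side, with none of 12 called and 11 of 12 medians lower on the high side.

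Other cell types of the heart wall also differed in their medians without separating the sides. All 8 smooth muscle and pericyte genes had lower medians in high-Myl7 hearts, with a list median of -0.43, the same size as that of the atrial list, and -0.17 without libraries 1, 14 and 15. All 9 endothelial genes had lower medians too, with a list median of -0.20, which was 0.05 without library 14 and -0.04 without libraries 1, 14 and 15. The epicardial and mesothelial list median was -0.24, or -0.06 without library 15 and -0.04 without libraries 1, 14 and 15. The 11 fibroblast genes had a median difference of 0.17, the 7 endocardial and valve genes 0.27 and the 9 macrophage genes -0.06. Without libraries 1, 14 and 15 these were -0.06, 0.18 and -0.35, and the fibroblast value was also -0.06 without library 4. None of these genes was called or separated the sides, and the part of these cell types in the result was not tested.

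The levels of Myl4, Sln and Mybphl can be set beside the same genes in other tissues. Myl4 in low-Myl7 hearts, at 1.13 to 2.87 CPM, lay below all 7 spleen libraries (5.28 to 12.9 CPM). It overlapped 15 skeletal muscle libraries (1.67 to 15.1 CPM) and 15 brain libraries (2.30 to 29.6 CPM). In kidney, liver and small intestine Myl4 reached at most 2.32 CPM. Sln reached 15.5 CPM in skeletal muscle, above the lowest high-Myl7 heart at 8.77 CPM, and at most 1.52 CPM in the other tissues outside heart. Mybphl reached at most 0.536 CPM in any library outside heart, below every high-Myl7 heart.

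Over the 14 hearts, the genes whose order was most like that of Myl7 were Myl4, Mybphl and Sln, with Spearman rho of 0.974, 0.924 and 0.863. These rho use the Myl7 values that made the sides, so they are not separate support for the 3 calls. The 14 points share the tissue and their library totals, and rho is given as a description. Among 9652 named genes with a mean of 5 CPM or more, 4 had a rho of 0.8 or more and none had -0.8 or less. The fourth was Mrpl40, a protein of the mitochondrial ribosome, with rho 0.820, which stood at 13.4 to 21.5 CPM in high-Myl7 hearts and 10.6 to 15.6 CPM in low-Myl7 hearts. Sptssa, Stard10, Dkk3, Tmem39a, Esd and Mob4 followed with rho of 0.701 to 0.754. Leaving out libraries 6 and 4, the farthest from the median Myl7 level, rho was 0.958 for Myl4, 0.879 for Mybphl, 0.810 for Sln, 0.734 for Mrpl40 and 0.594 for Dkk3. Pearson's r on log2(CPM + 1) over all 14 was 0.990 for Myl4, 0.959 for Mybphl and 0.942 for Sln.

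At the other end, Cnot2, Irgm2 and Afap1 had a rho of -0.758 and Igtp had -0.749. Cnot2 is a subunit of the complex that removes poly(A) tails, and Igtp and Irgm2 are GTPases that interferon induces in the mouse. Igtp stood at 6.25 to 11.8 CPM in high-Myl7 hearts, against 15.0, 16.1, 126, 15.7 and 33.1 CPM in low-Myl7 libraries 14, 15, 7, 3 and 10. It separated the sides with a difference of -0.59, under the 2-fold rule, and library 7 held much the most. Igtp was called lower without library 14, 15 or 3 and without libraries 1, 14 and 15 together. Irgm2 overlapped, and was called lower without library 14 and without libraries 1, 14 and 15 together.

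By separation alone, with no limit on size, 29 genes lay wholly above and 28 wholly below, 0.218% and 0.21% of the 13321 genes compared. The numbers above and below were near even, and they changed with the scaling: 25 above and 33 below with trimmed mean of M values (TMM) scaling, 25 and 34 with DESeq2 size factors, and 19 and 45 when CPM left out mitochondrially encoded genes. With 1 library left out they were 38 to 112 above and 37 to 159 below. Beyond the 3 called genes the differences were under 1 on the log2(CPM + 1) scale, which understates the change of genes near 1 CPM: with a pseudocount of 0.5 CPM, Anxa8, Ppp1r1b and Shisa2 were called higher as well. Anxa8 and the genes named in the next sentences were chosen after their values were seen. Among the genes above, Shisa2 differed by 0.86 at 1.58 to 3.04 CPM against 0.240 to 0.968 CPM, and Ppp1r1b, a phosphatase inhibitor, differed by 0.78 at 0.652 to 12.2 CPM against 0.0799 to 0.323 CPM, highest in library 6. Ddr1, a collagen receptor kinase, stood at 30.1 to 45.8 CPM in high-Myl7 hearts and 15.3 to 27.2 CPM in low-Myl7 hearts. Among the genes below, the class I histocompatibility gene H2-Q6 stood at 15.9 to 18.4 CPM in high-Myl7 hearts and 24.0 to 67.6 CPM in low-Myl7 hearts, and Il15, a cytokine, at 7.34 to 10.86 CPM and 10.89 to 19.2 CPM.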

How the data were processed

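Per the labels' protocols, total RNA came from frozen heart and a company made and sequenced the libraries. Estimated counts for 56941 gene rows were deposited by the authors. Build GRCm39 and DESeq2 (version not named) appear in the submitters' processing notes. How reads were aligned, counted and assigned to strands is not given in the sources used here, so overlapping and antisense genes and close paralogs are uncertain.

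The 14 heart columns were found by their tissue code. CPM was computed from the estimated counts, and differences are of medians of log2(CPM + 1), among genes with a mean of 1 CPM or more. The members, the gene lists and the call rule were chosen with earlier results of these data known. Of 293 list genes, 292 matched a gene name. Rows without a gene name held at most 0.0186% of a heart library and stayed in the totals. Named genes are list members, called genes with a median of 5 CPM or more, and the 10 highest and 5 lowest Spearman rho with Myl7 among named genes with a mean of 5 CPM or more. The report also names a few others, marked as chosen after their values were seen. Some genes are not reported here. No 2 of the 14 libraries (91 pairs) held the same values, and over genes with 20 or more counts the chi-square per gene of the closest pair was 9.64, above sampling noise.

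The calculation was tested on simulated counts that held sampling noise alone, with no spread between hearts. This checks the calculation, and it does not give the error rate of the call rule in these hearts. Alternatives were TMM scaling (edgeR 4.0.16) and DESeq2 1.42.0 size factors, both on rounded counts in R 4.3.3, CPM without mitochondrially encoded genes, other filters, a pseudocount of 0.5 CPM, and each library left out. Leaving out libraries 1, 14 and 15 together was chosen after seeing the data. All else ran in Python 3.11.15 with pandas 2.3.3.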

Additional observations from a re-analysis of the deposited data

Results flagged for a closer look

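Within a side of 5, a library was marked where its gap to the nearest other library was too large a share of the side's range by Dixon's test for 5 values. Of 124 values looked at, 13 were marked. The limit used marks about 1 in 20 of independent, normally distributed values. The genes and lists looked at are related and their CPM values are skewed, so 13 is not compared with chance. Where all the other libraries of a side had no count, as for Bmp10 and Nppc, any count was marked by construction. Library 1 was marked 6 times within the high side. It was the lowest for Angpt1 at 5.41 CPM (others 20.8 to 26.7), for Pln at 2887 CPM (others 4362 to 5060) and for Npr2, a natriuretic peptide receptor, at 27.8 CPM (others 58.2 to 67.9). Its mean log2(CPM + 1) was the lowest over the clock genes, at 3.49 (others 4.72 to 5.14), and the highest over the thymus and T cell genes, at 0.339 (others 0.0752 to 0.121), and over the brown adipocyte genes, at 4.39 (others 3.50 to 3.65).

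Library 10 was marked 3 times within the low side. It was the lowest for Nppb at 9.80 CPM (others 74.7 to 122), and the highest for Furin, a protease that cleaves prohormones, at 670 CPM (others 64.9 to 124). It was also the highest over the white adipocyte genes, with a mean log2(CPM + 1) of 1.60 (others 0.0150 to 0.278).

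Library 4 of the high side was the highest over the heart muscle genes, with a mean log2(CPM + 1) of 10.5 (others 10.3 to 10.4), and the lowest over the endothelial genes, at 5.95 (others 6.30 to 6.39). Bmp10 was the highest in low-Myl7 library 3 at 0.403 CPM, where the others had no count. Nppc, the C-type natriuretic peptide, was the highest in high-Myl7 library 6 at 0.302 CPM, where the others had no count.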

How the results depend on the processing

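Myl4, Sln and Mybphl were called higher in all 17 alternatives, of which only those that changed the scaling could have made their sides overlap. The atrial and ventricular list medians moved by less than the spread within the sides in each alternative. Other counts moved. Genes called lower, none as reported, numbered 1 with TMM scaling, 1 with DESeq2 size factors and 2 with CPM without mitochondrially encoded genes. Genes called higher numbered 5 with no filter and 6 with a pseudocount of 0.5 CPM. Of genes that separated the sides, 19 lay above and 45 below without mitochondrially encoded genes, 51 lay below with no filter and 17 below with a mean of 5 CPM or more. Leaving out 1 library gave 3 to 18 genes called higher, 0 to 33 called lower, 38 to 112 above and 37 to 159 below, and leaving out libraries 1, 14 and 15 gave 16, 8, 381 and 128. Fewer libraries on a side overlap less by construction.

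The median difference of all genes ran from -0.04 to 0.06 on the log2 scale over these settings. On the low side Myl7, Sln and Mybphl have so few counts that depth limits any order of the libraries there. No paired analysis was possible because the column names carry no replicate number from the labels. Whether the 14 hearts came from 14 animals is not stated in the labels.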
